A study of Mus musculus with 4 samples.

Results

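Allergic rhinitis is driven by immunoglobulin E (IgE) that sits on mast cells and basophils and, when allergen binds it, makes them release histamine. This report follows the 7 genes that encode the IgE receptors, the enzyme that makes histamine and the histamine receptors H1 and H2, in single CD45+ cells of mouse nasal mucosa. The genes were Fcer1a, Ms4a2 and Fcer1g (the α, β and γ chains of the high-affinity IgE receptor FcεRI), Fcer2a (the low-affinity receptor CD23), Hdc (histidine decarboxylase), Hrh1 and Hrh2. They were taken by symbol, and each symbol was carried by 1 of the genes listed in every library. All were read in 4 libraries, 1 for each group: Vehicle, Vehicle-OVA, Ribavirin and Ribavirin-OVA. Every mouse was a C57BL/6 animal of 8 weeks. OVA is ovalbumin, the allergen, which the study's methods describe as injected with alum to sensitise the mice and then given into the nose. Ribavirin is an antiviral drug that the series describes as a nasal spray, and its dose, its schedule and the number of mice in a library are not given in the sources used here.

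FcεRI on mast cells and basophils holds IgE through its α chain, while the β and γ chains carry the signalling motifs. The γ chain is shared with Fc receptors and other immune receptors of many myeloid cells, so that its transcript alone does not mark an IgE-binding cell. CD23 on B cells binds IgE with low affinity and takes up IgE-allergen complexes. Histamine is made from histidine by a single step that histidine decarboxylase catalyses, is stored in granules by the vesicular transporter Slc18a2, and acts through H1 receptors on vessels, nerves and dendritic cells and through H2 receptors on many leukocytes.

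After the filters 24647, 17033, 19719 and 8767 cells remained in the 4 libraries, in the order named above, 70166 in all. Each deposited library held 91742940 to 171873110 unique molecular identifiers (UMIs, counts of single captured transcripts), with a median of 3389 to 4952 UMIs per cell. Pairs of libraries shared 57 to 174 cell barcodes, 0.553% to 0.909% of the smaller library. Doublet calling marked 0.567% to 4.2% of cells against 4.12% to 11.3% expected, so doublets remained among the cells. Cell classes were rebuilt here by clustering without the 7 genes and named from markers, hence "-like". Levels are CPM: the UMIs of a gene were summed over the cells of a class in a library and scaled to the same total for every class and library. Wherever 4 values follow each other they are in that order of libraries. With 1 library per group no difference between groups could be tested: the 95% intervals given are exact and cover counting error only, and every comparison is of libraries, not of conditions. Fewer cells of a type and less RNA per cell cannot be told apart in values summed over all cells.

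The mast cell and basophil classes were small. One cluster of 114 cells led by the mucosal mast cell protease Mcpt1 was divided by marker UMIs into 33 mast cell-like cells, 65 basophil-like cells and 16 cells of neither. Vehicle, Vehicle-OVA, Ribavirin and Ribavirin-OVA held 5, 6, 4 and 18 mast cell-like cells and 4, 25, 9 and 27 basophil-like cells. The mast cell-like cells carried the proteases Mcpt1 and Mcpt2 and the carboxypeptidase Cpa3 (2037 UMIs, 5587 CPM). Other markers of the same list were nearly absent without OVA: Mcpt4 had 1, 977, 0 and 1630 UMIs, Cma1 0, 1286, 0 and 1744, and Tpsb2 4, 526, 5 and 692. Differences with OVA within this class thus compare cells of unlike marker makeup. The 4 basophil-like cells of Vehicle held 0 UMIs of Mcpt8, the defining basophil protease, so that their name rests on other markers. The basophil-like class also held S100a8, a neutrophil gene, at 1659 CPM, with 395 of its 469 UMIs in Vehicle-OVA. S100a9 likewise had 545 of its 596 UMIs there. Other neutrophil markers had most UMIs in Ribavirin-OVA: Cxcr2 had 9, 45, 16 and 114 (651 CPM) and G0s2 0, 29, 0 and 63. The part of neutrophil RNA in the basophil-like values was not tested.

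The promoter windows of 3 members are shown because Fcer1a and Ms4a2 were found in the same few cells whereas Hdc was also found in neutrophils. Each is the stretch of 200 bases that ends at the RefSeq start of the gene on build GRCm38.p6, read 5′ to 3′ on the minus strand: chr1:173227230-173227429 for Fcer1a, chr19:11623720-11623919 for Ms4a2 and chr2:126618679-126618878 for Hdc. Capitals mark the letters GATAA or their reverse complement TTATC, the core that GATA factors such as Gata2 of mast cells and basophils bind. The Fcer1a window held 1 match and the Ms4a2 window held 2. The Hdc window held 0, which says only that these letters are not in this window. It lies inside the gene as GENCODE M21 places it (126593667 to 126619299), whereas the windows of Fcer1a and Ms4a2 lie outside theirs. The counts of matches are thus not of like windows. Of 32851 RefSeq promoter windows of 200 bases, 18.1% held a match on either strand, so a match is a description and not a site. A second set of letters was searched, TTGCNNAA with its reverse complement TTNNGCAA, the core of C/EBP factors of myeloid cells. It was found 1 time in the Fcer1a window and 0 times in the other 2, and 7.47% of all windows held it. Among the windows of the other members, which are not shown, 2 of the 4 for Hrh1 held each of these sets of letters, and those for Fcer1g, Fcer2a and Hrh2 held neither. Hrh1 had 0 UMIs in mast cell-like and basophil-like cells, so the letters did not go with the mast cell and basophil members alone.
Fcer1a: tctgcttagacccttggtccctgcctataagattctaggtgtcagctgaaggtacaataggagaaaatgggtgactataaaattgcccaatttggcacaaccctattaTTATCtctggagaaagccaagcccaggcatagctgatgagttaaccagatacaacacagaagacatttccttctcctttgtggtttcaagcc
Ms4a2: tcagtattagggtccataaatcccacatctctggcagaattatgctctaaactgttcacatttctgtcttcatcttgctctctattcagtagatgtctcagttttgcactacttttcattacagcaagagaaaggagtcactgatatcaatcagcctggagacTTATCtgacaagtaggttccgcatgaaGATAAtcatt
Hdc: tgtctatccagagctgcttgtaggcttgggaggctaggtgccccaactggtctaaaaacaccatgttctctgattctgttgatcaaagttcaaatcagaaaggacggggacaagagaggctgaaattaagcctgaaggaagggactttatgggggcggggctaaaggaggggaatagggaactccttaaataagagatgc

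Over all cells, the mast cell and basophil chains of FcεRI and CD23 were higher in both OVA libraries than in their partners, the γ chain was lower in both, and Hdc differed in direction between the pairs. From Vehicle to Vehicle-OVA, 3 of the 7 genes (Fcer1a, Fcer2a and Hdc) were at least 2-fold higher on the log2(CPM + 1) scale and 0 were lower, where 7.76% of 15300 genes were higher and 5.56% lower. From Ribavirin to Ribavirin-OVA, 2 genes (Fcer1a and Ms4a2) were higher and 1 (Fcer1g) was lower, against 5.59% and 1.21% of 15915 genes. From Vehicle to Ribavirin, 0 of the 7 passed in either direction, against 5.22% of 15928 genes higher and 0.0691% lower. From Vehicle-OVA to Ribavirin-OVA, Ms4a2 was higher and Hdc lower, against 9.42% and 3.02% of 15311 genes. The median log2 difference of all genes was 0.01, 0.33, -0.05 and 0.37 in these 4 comparisons. Relative to it, 0 genes were higher and 3 (Fcer1g, Fcer2a and Hdc) were lower from Vehicle-OVA to Ribavirin-OVA, and the counts of the other comparisons did not change. A scale with 1 CPM added hides part of the change of scarce transcripts: with 0.1 CPM added, an alternative chosen after seeing the data, 4 genes were higher from Vehicle to Vehicle-OVA, Ms4a2 being the fourth.

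**Figure D1:**
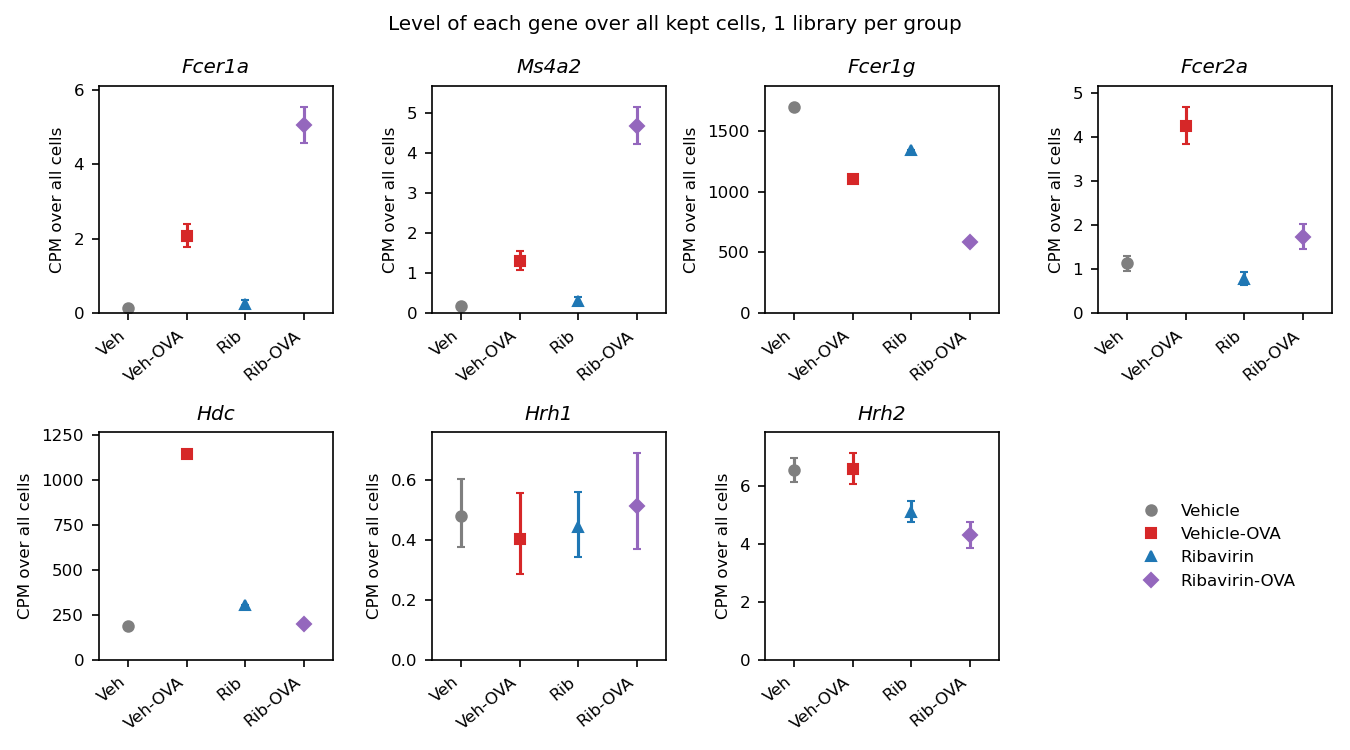
Level of each of the 7 genes over all cells, in CPM on a linear axis of its own, in the 4 libraries. Bars are exact 95% counting intervals. Fcer1a and Ms4a2 are higher in both OVA libraries, Fcer1g is lower in both, and Hdc is highest in Vehicle-OVA at 1142 CPM.

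Fcer1a lies on chromosome 1 at 173221284 to 173227214 on the minus strand (GRCm38, GENCODE M21) and encodes the IgE-binding chain. It had 22 UMIs in Vehicle, 189 in Vehicle-OVA, 39 in Ribavirin and 423 in Ribavirin-OVA, that is 0.143, 2.07, 0.25 and 5.04 CPM. The Vehicle-OVA library was 14.5-fold higher than Vehicle (9.28 to 23.6), and the Ribavirin-OVA library 20.2-fold higher than Ribavirin (14.5 to 28.8). Over all libraries, mast cell-like cells held 387 of its 673 UMIs, basophil-like cells 66, T cell-like cells 136 and ILC2-like cells 55. In mast cell-like cells the level was 359, 1658, 463 and 949 CPM, from 7, 145, 9 and 226 UMIs in 5, 6, 4 and 18 cells. The difference was 4.62-fold (2.18 to 11.7) from Vehicle to Vehicle-OVA and 2.05-fold (1.06 to 4.54) from Ribavirin to Ribavirin-OVA. Mast cell-like cells also had more UMIs each in the OVA libraries, with medians of 16716 and 13324 against 4102 and 4408, and the part of that difference was not tested. When the marker rule was applied to cells of every cluster, an alternative chosen after seeing the data, the log2 difference from Ribavirin to Ribavirin-OVA was -1.77 in place of 1.03. In basophil-like cells the level was 326, 150.2, 458 and 242 CPM, lower in both OVA libraries, with counting intervals of the folds that include 1 (0.152 to 1.87 and 0.276 to 1.05).

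Ms4a2 lies on chromosome 19 at 11615523 to 11623719 on the minus strand and encodes the β chain, which amplifies the signal of FcεRI and is known mainly from mast cells and basophils. It had 27, 119, 48 and 393 UMIs, or 0.175, 1.3, 0.307 and 4.68 CPM over all cells. The OVA library was 7.42-fold higher under vehicle (4.85 to 11.7) and 15.2-fold higher under ribavirin (11.3 to 21). Within classes the levels were closer together than over all cells. Mast cell-like cells held 359, 526, 669 and 777 CPM, and basophil-like cells 571, 375, 745 and 726 CPM. The folds with OVA in mast cell-like cells were 1.46 (0.657 to 3.84) and 1.16 (0.662 to 2.22), and in basophil-like cells 0.658 (0.294 to 1.73) and 0.975 (0.622 to 1.58), so that no difference with OVA within these classes was larger than counting error. With the marker rule applied to cells of every cluster, the log2 difference in mast cell-like cells from Ribavirin to Ribavirin-OVA was -2.50 in place of 0.21. Between the OVA libraries, Ribavirin-OVA was higher in mast cell-like cells by 1.48-fold (1.06 to 2.09) and in basophil-like cells by 1.93-fold (1.33 to 2.84).

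Cells with a UMI of both Fcer1a and Ms4a2 numbered 67 of 70166. They were 6 in Vehicle, 14 in Vehicle-OVA, 11 in Ribavirin and 36 in Ribavirin-OVA, or 0.0243%, 0.0822%, 0.0558% and 0.411% of cells. The Ribavirin-OVA share had an exact interval of 0.288% to 0.568%, which lies above those of the other libraries. Of the 67 cells, 26 were mast cell-like and 27 basophil-like, and 66 also held a UMI of Fcer1g. Hdc was detected together with both chains in 55 cells. Of the mast cell-like cells with both chains, 0 of 3 in Vehicle and 0 of 2 in Ribavirin had a UMI of Hdc. The same count was 3 of 4 in Vehicle-OVA and 14 of 17 in Ribavirin-OVA. Mast cell-like cells without OVA also had fewer UMIs each, and the part of that was not tested. Among the cells outside the named mast cell and basophil classes, 4 lay in a cycling T cell-like cluster led by the histone gene Hist1h1b. Those 4 cells, 1 from Vehicle-OVA and 3 from Ribavirin-OVA, held 16 and 116 UMIs of Fcer1a, 7383 and 20787 UMIs of mast cell markers, and 0 UMIs of Cd3 genes. They held all the Fcer1a UMIs of T cell-like cells in these 2 libraries and were left in that cluster. An ILC2-like cluster held 4 more cells with both chains, with 12 UMIs of Fcer1a in Ribavirin and 43 in Ribavirin-OVA. These cells also held 96 and 7395 UMIs of mast cell markers in these 2 libraries.

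**Figure D2:**
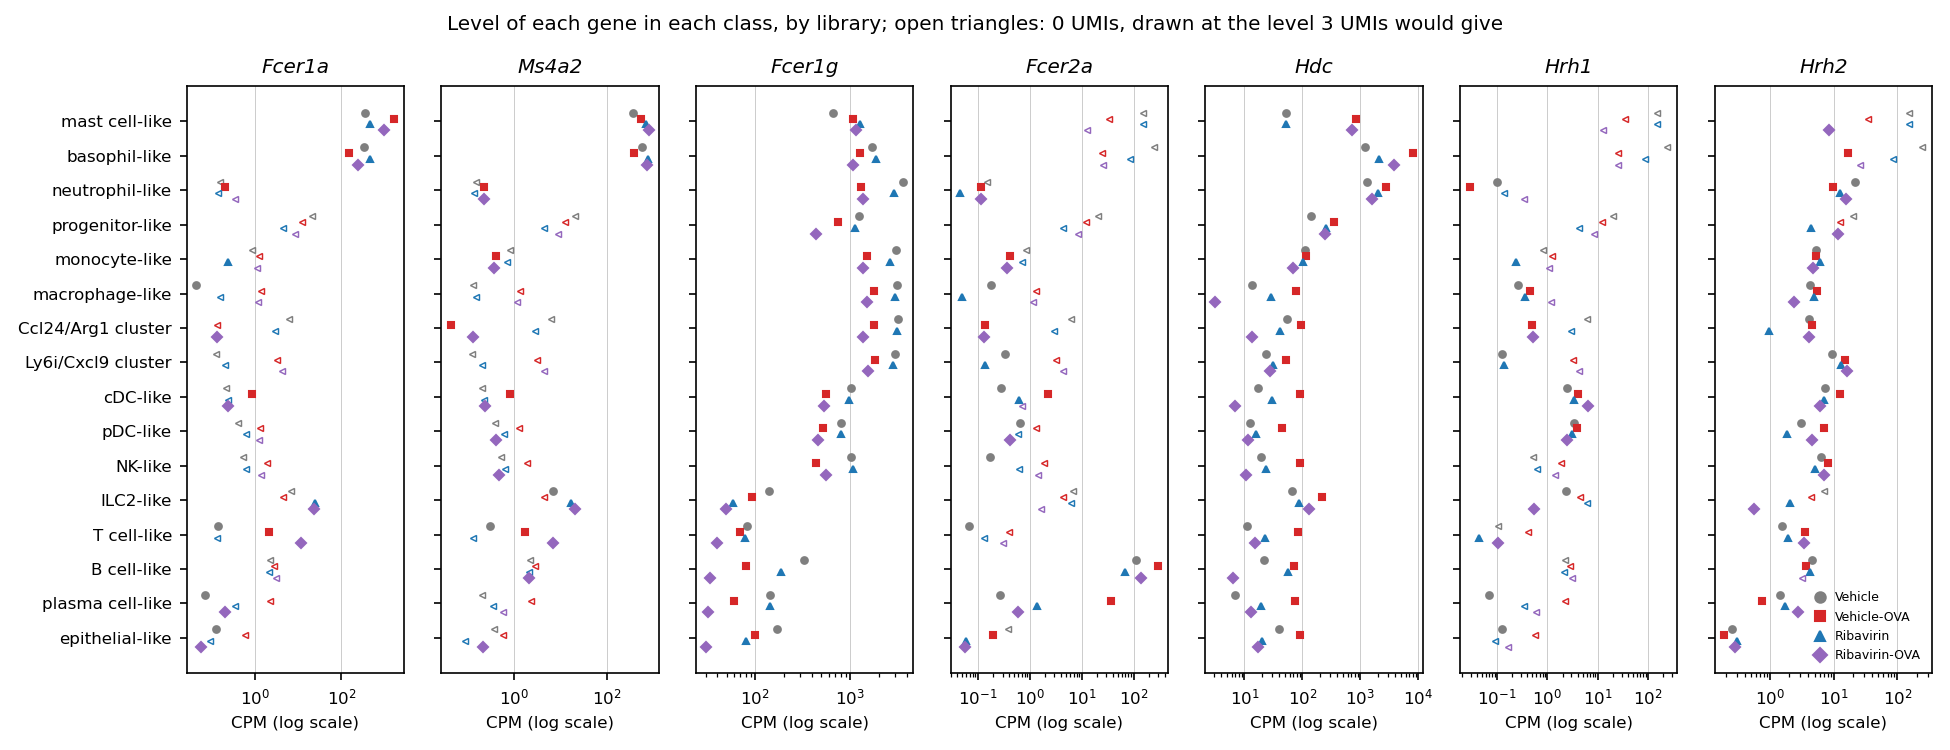
Level of the 7 genes in each cell class and library, in CPM on a log axis, 1 panel a gene. Points are libraries, and open triangles mark 0 UMIs, drawn at the level that 3 UMIs would give. Fcer1a and Ms4a2 stand out in the mast cell-like and basophil-like rows, Fcer2a in the B cell-like row, Hrh1 in the conventional and plasmacytoid dendritic cell rows, and Hdc in neutrophil-like and basophil-like rows.

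ILC2-like cells reached 25.1 CPM of Fcer1a and 20.4 CPM of Ms4a2 in a library, and T cell-like cells 11.9 and 6.95 CPM. All 55 and 136 Fcer1a UMIs of these classes lay in cells that held both chains, and those cells also held UMIs of mast cell or basophil markers. In the other named classes and clusters the highest level in a library was 2.27 CPM for either chain. Neutrophil-like cells held 7 UMIs of Fcer1a in 27371 cells, all in 1 cell of Vehicle-OVA, and 10 UMIs of Ms4a2. T cell-like cells, which are not known to carry FcεRI, served as background. The share of cells with a UMI of Fcer1a was 60%, 83.3%, 50% and 94.4% in mast cell-like cells and 50%, 36%, 66.7% and 51.9% in basophil-like cells, against 0.0175%, 0.0725%, 0% and 0.183% in T cell-like cells with medians of 4098 to 5083 UMIs. Each T cell-like cell with Fcer1a also held Ms4a2. When each cell was thinned to 1000 UMIs, the shares in mast cell-like cells were 20%, 83.3%, 50% and 50%, and in basophil-like cells 0%, 4.17%, 11.1% and 18.5%.

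Fcer1g lies on chromosome 1 at 171229572 to 171234365 on the minus strand. It is the common γ chain, which pairs with Fcγ receptors and other activating receptors besides FcεRI. Its level over all cells was 1693, 1106, 1339 and 583 CPM, lowest in Ribavirin-OVA. The OVA library was lower in both pairs, at 0.653-fold (0.648 to 0.658) and 0.435-fold (0.431 to 0.44). The transcript was spread over the myeloid cells, and NK-like cells also held it, at 1032, 442, 1070 and 558 CPM. Neutrophil-like cells held 24.3% to 45.3% of its UMIs, and macrophage-like cells 3.98% to 28.4%. An unnamed myeloid cluster led by Ccl24 and Arg1, with 52, 2316, 101 and 1478 cells, held 0.597%, 39.2%, 1.55% and 43.7%, at 3200, 1777, 3118 and 1380.4 CPM. In neutrophil-like cells the level was 3650.5, 1307, 2901 and 1359 CPM, a fold with OVA of 0.358 (0.354 to 0.362) and 0.469 (0.459 to 0.478). In macrophage-like cells it was 3126, 1809.9, 3003 and 1527 CPM, a fold of 0.579 (0.561 to 0.598) and 0.509 (0.492 to 0.525). Monocyte-like cells held 3016, 1521.5, 2657 and 1370.3 CPM, and conventional dendritic cell-like cells 1036, 563, 985 and 530.4 CPM. Each of these classes was lower in the OVA library in both pairs.

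In the mast cell-like and basophil-like cells, only the fold of basophil-like cells under ribavirin was beyond counting error. Mast cell-like cells held Fcer1g at 667, 1086, 1287 and 1142 CPM from 13, 95, 25 and 272 UMIs, a fold with OVA of 1.63 (0.908 to 3.17) and 0.887 (0.588 to 1.4). Basophil-like cells held 1713, 1259.6, 1891 and 1064 CPM, a fold of 0.735 (0.464 to 1.22) and 0.563 (0.414 to 0.771). With the marker rule applied to cells of every cluster, the log2 differences from Vehicle to Vehicle-OVA changed sign. They were -0.43 in place of 0.70 in mast cell-like cells and 0.50 in place of -0.44 in basophil-like cells. Other quantities moved with the γ chain across classes. Ribosomal-protein transcripts were 6.6%, 2.04%, 5.09% and 2.8% of UMIs in neutrophil-like cells and 15.4%, 9.29%, 15.5% and 8.78% in macrophage-like cells, lower in both OVA libraries. Genes with short transcripts were lower than genes with long ones: in macrophage-like cells the median log2 difference from Vehicle to Vehicle-OVA was -0.41 for the 10% of genes whose transcripts are shortest and 0.52 for the 10% whose transcripts are longest, and from Ribavirin to Ribavirin-OVA it was -0.43 and 0.46. The longest annotated Fcer1g transcript has 683 bases, shorter than the limit of 1360 bases of that shortest 10%. Tyrobp, which encodes the adaptor DAP12, was at 2603, 1502, 2432 and 1489 CPM in macrophage-like cells. The part of these in the Fcer1g difference was not tested. The gene whose level was most like Fcer1g over 60 points (15 classes in 4 libraries) was Tyrobp, with a Pearson r of 0.958 on log2 levels. The points share libraries and depth, so the value is a description.

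**Figure D3:**
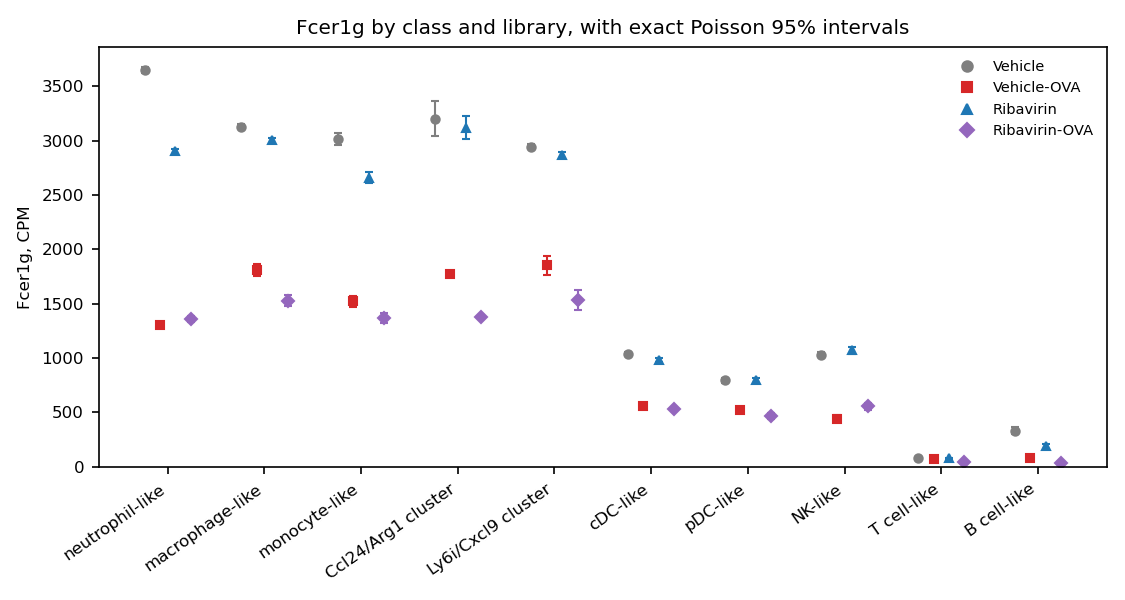
Fcer1g in CPM on a linear axis, per cell class in the 4 libraries, with exact 95% counting intervals. The OVA libraries lie below their partners in neutrophil-like cells (1307 against 3650.5 CPM and 1359 against 2901 CPM) and macrophage-like cells, and T cell-like cells are low in all 4 libraries.

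Fcer2a lies on chromosome 8 at 3681737 to 3694175 on the minus strand and encodes CD23. It had 174, 389, 122 and 145 UMIs, or 1.13, 4.25, 0.781 and 1.73 CPM over all cells. The fold with OVA was 3.76 (3.14 to 4.53) under vehicle and 2.21 (1.73 to 2.84) under ribavirin. B cell-like cells held 83.9%, 82.8%, 78.7% and 91% of its UMIs. In them the level was 109.6, 297, 68.2 and 138 CPM from 146, 322, 96 and 132 UMIs in 325, 248, 335 and 120 cells. The level within B cell-like cells was thus higher in both OVA libraries, by 2.71-fold (2.22 to 3.32) and 2.02-fold (1.54 to 2.66), while the median gene differed by 0.43 and 0.24 on the log2 scale. Between the OVA libraries, Ribavirin-OVA held 0.464-fold the level of Vehicle-OVA (0.376 to 0.57). A UMI was found in 26.8%, 50.8%, 16.7% and 33.3% of B cell-like cells, and in 10.8%, 24.1%, 6.27% and 11.8% after thinning to 1000 UMIs. T cell-like cells, as background, held 2 UMIs in Vehicle and 0 in the other libraries, where 3 counts would be 0.403, 0.132 and 0.307 CPM. B cell-like cells had a median of 3136 to 4491 UMIs and T cell-like cells 4098 to 5083.

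Plasma cell-like cells held 4, 48, 12 and 3 UMIs of Fcer2a. All 48 UMIs of Vehicle-OVA came from a cycling cluster of that class led by Hist1h2ap, which had 46 of the class's 48 cells in this library, at 36.4 CPM (26.8 to 48.2). Mast cell-like, basophil-like and progenitor-like cells held 0 UMIs of Fcer2a in every library. The gene with the most similar level over the classes was Cr2 (r = 0.964), which encodes the complement receptor CD21 that binds CD23. In B cell-like cells Cr2 was at 61.5, 383, 55.4 and 58.6 CPM, so that its level was high in Vehicle-OVA and not in Ribavirin-OVA.

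Hdc lies on chromosome 2 at 126593667 to 126619299 on the minus strand and encodes the only enzyme that makes histamine. Over all cells it was found at 189.8, 1142, 302 and 196 CPM. Vehicle-OVA was 6.02-fold higher than Vehicle (5.94 to 6.1), whereas Ribavirin-OVA was 0.647-fold the level of Ribavirin (0.636 to 0.659). Neutrophil-like cells held 90%, 93.8%, 90.6% and 85.9% of all Hdc UMIs. Mast cell-like cells held 0.00342%, 0.0699%, 0.00212% and 1.05% of them, and basophil-like cells 0.0513%, 0.917%, 0.157% and 2.63%. Neutrophil-like cells were 29.3%, 64.5%, 33.3% and 29.5% of the cells kept, so that Vehicle-OVA differed in their number as well as in their Hdc.

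Per UMI, basophil-like cells of the OVA libraries held the highest Hdc of the 3 classes. Neutrophil-like cells were at 1325, 2793, 1981 and 1614 CPM from 26329, 97966, 42846 and 14131 UMIs. Basophil-like cells were at 1223, 7991, 2119.7 and 3735 CPM from 15, 958, 74 and 432 UMIs. Mast cell-like cells were at 51.3, 835, 51.5 and 726 CPM from 1, 73, 1 and 173 UMIs. The ratio of neutrophil-like to basophil-like cells was 1.08 in Vehicle (0.657 to 1.94) and 0.934 in Ribavirin (0.744 to 1.19), where the classes did not differ beyond counting error. It was 0.35 in Vehicle-OVA (0.328 to 0.373) and 0.432 in Ribavirin-OVA (0.393 to 0.477). The ratio of neutrophil-like to mast cell-like cells was 3.35 in Vehicle-OVA (2.66 to 4.27) and 2.22 in Ribavirin-OVA (1.91 to 2.6). Its size depended on how the cells were assigned: on the log2 scale it was 1.74 and 1.15 here, 3.85 and 4.84 with the marker rule applied to cells of every cluster, and 0.28 in Ribavirin-OVA with classes from marker UMIs of single cells. In Vehicle and Ribavirin it was 25.8 (4.63 to 1020) and 38.5 (6.91 to 1520), each against a single mast cell-like UMI. Neutrophil-like cells thus held more Hdc per UMI than mast cell-like cells in all 4 libraries. Per cell the order of the means was the other way in the OVA libraries. Mast cell-like cells held a mean of 0.2, 12.2, 0.25 and 9.61 Hdc UMIs, and neutrophil-like cells 3.64, 8.92, 6.52 and 5.46. Mast cell-like cells of the OVA libraries had medians of 16716 and 13324 UMIs, against 2856 and 2927.5 in neutrophil-like cells. When the marker rule was applied to cells of every cluster, the neutrophil-like level was above the basophil-like level in Ribavirin-OVA, with a log2 ratio of 0.35 in place of -1.21.

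**Figure D4:**
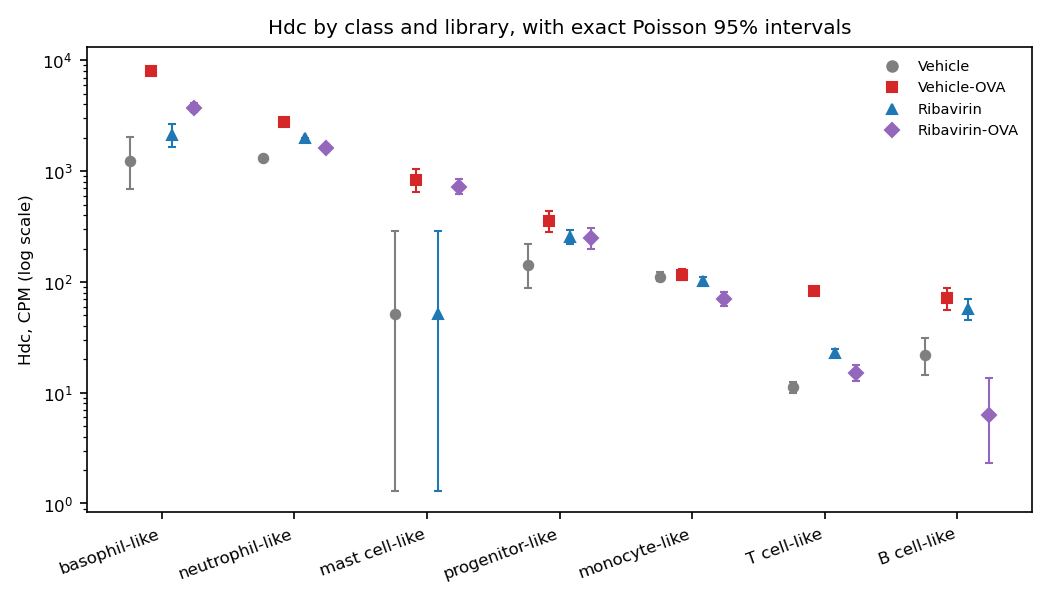
Hdc in CPM, on a log axis, in neutrophil-like, basophil-like and mast cell-like cells and in background classes of each library, with exact 95% counting intervals. Basophil-like cells reach 7991 CPM in Vehicle-OVA, neutrophil-like cells lie between 1325 and 2793 CPM, and mast cell-like cells of Vehicle and Ribavirin rest on 1 UMI each.

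A UMI of Hdc was found in 73.8%, 83%, 86.4% and 78.2% of neutrophil-like cells, with medians of 2285.5, 2856, 2771 and 2927.5 UMIs per cell. Thinned to 1000 UMIs per cell, the shares were 57.5%, 75.1%, 70.5% and 61.7%, leaving out 283, 605, 0 and 182 shallower cells. T cell-like cells, which are not known to make histamine, had shares of 3.89%, 20.9%, 7.25% and 4.57%, or 1.1%, 5.28%, 1.47% and 1.3% thinned. The level in T cell-like cells was 11.2, 82.4, 22.9 and 15.1 CPM. Of the 148 UMIs behind the value of Ribavirin-OVA, 60 lay in the 3 cells with mast cell markers described above. Without the T cell-like cells that held both Fcer1a and Ms4a2, an alternative chosen after seeing the data, the level was 10.8, 82, 22.9 and 9.1 CPM. The part of free neutrophil RNA in these values was not tested. The neutrophil-like level was 118, 33.9, 86.6 and 107 times the T cell-like level of the same library, and 123, 34.1, 86.6 and 177 times without those cells. In macrophage-like cells Hdc was 13.5, 76, 29.3 and 3.13 CPM, also far below neutrophil-like cells. Per cell, neutrophil-like cells held a median of 2, 6, 5 and 3 Hdc UMIs and at most 44, 107, 81 and 54. Basophil-like cells held medians of 4.5, 27, 7 and 11 UMIs, and mast cell-like cells 0, 6, 0 and 7.

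Within neutrophil-like cells, Hdc was 2.11-fold higher in Vehicle-OVA than in Vehicle (2.08 to 2.14) and 0.815-fold in Ribavirin-OVA against Ribavirin (0.799 to 0.83). The median gene of these cells differed by -0.66 and 0.28 on the log2 scale in the same comparisons. Relative to it, the log2 difference of Hdc was 1.74 and -0.58. In basophil-like cells the fold with OVA was 6.53 (3.94 to 11.7) and 1.76 (1.37 to 2.29), and in mast cell-like cells 16.3 (2.83 to 651) and 14.1 (2.5 to 560.5), against 1 UMI in each library without OVA. With the marker rule applied to cells of every cluster, the log2 difference in basophil-like cells from Ribavirin to Ribavirin-OVA was -0.082 in place of 0.82. Between the OVA libraries, Ribavirin-OVA was lower in neutrophil-like cells (0.578-fold, 0.568 to 0.588) and in basophil-like cells (0.467-fold, 0.416 to 0.524), and did not differ beyond counting error in mast cell-like cells (0.87-fold, 0.658 to 1.16).

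Hdc differed widely among the neutrophil-like clusters, which were made without it. Libraries and clusters were mixed unevenly, so levels were ranked within a library, over clusters with at least 20 of its cells. In Vehicle-OVA the cluster led by Mmp8 and Prok2 was highest (3734 CPM), followed by that led by Csf3 and Serpinb2 (3470.3 CPM) and that led by the interferon-response genes Rsad2 and Slfn4 (3081 CPM). The interval of the Rsad2 cluster overlapped with that of the cluster led by Ifit3b (3050 CPM). The Mmp8 cluster was also highest in Ribavirin-OVA (2876 CPM). The intervals of the next clusters there, led by H2-Q10, Csf3 and Ifit3b (2514, 2381 and 2289 CPM), overlapped. In Vehicle the Mmp8 cluster (2535 CPM) and the interferon-response cluster led by Ifit3b (2418 CPM) had overlapping intervals. In Ribavirin those of the Rsad2, Mmp8, H2-Q10, Ifit3b and Csf3 clusters (3025, 2981, 2904, 2872 and 2639 CPM) overlapped. The 2 clusters led by Siglecf, a receptor known from eosinophils and from tissue neutrophils, were lowest of the neutrophil-like clusters in Vehicle (592 and 651 CPM) and in Ribavirin (526 and 577 CPM). The smaller of them overlapped in Vehicle with the immature cluster led by Ngp and Camp, genes of secondary granules (709 CPM). In Vehicle-OVA the larger Siglecf cluster (1067 CPM) overlapped with that immature cluster (1083 CPM). In Ribavirin-OVA the Siglecf clusters held 1112 and 975 CPM. The cluster led by the stress genes Hspa1b and Hspa1a, at 889 CPM (819 to 962), overlapped there with the smaller Siglecf cluster (929 to 1023). The progenitor-like cluster led by Fcnb and Camp held 255 CPM in Ribavirin, where it had 41 cells.

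The cluster makeup differed between the libraries. Vehicle had 3559 of its 7232 neutrophil-like cells in the Siglecf clusters, and Vehicle-OVA 874 of 10984, whereas Ribavirin had 1977 of 6567 and Ribavirin-OVA 831 of 2588. Within the larger Siglecf cluster the level was 592, 1067, 526 and 1112 CPM, higher in both OVA libraries. Within the cluster led by Lrg1 it was 2322, 2465, 2644 and 1911 CPM, higher in Vehicle-OVA than in Vehicle and lower in Ribavirin-OVA than in Ribavirin. The Mmp8 cluster was also higher in Vehicle-OVA than in Vehicle, while its levels in Ribavirin (2799 to 3172 CPM) and Ribavirin-OVA (2745 to 3011 CPM) overlapped. The immature cluster was at 709, 1083, 969 and 1197 CPM. The cluster led by Csf3 had 3180 of its 3278 cells in Vehicle-OVA, where its level was 3470.3 CPM. Its 33 cells of Ribavirin were at 2639 CPM and its 50 cells of Ribavirin-OVA at 2381 CPM. In 4 of the clusters (both led by Siglecf and those led by Hspa1b and by Rsad2) the best marker score was that of eosinophils, on fewer than 3 detected markers, and they were named by the next class. The larger Siglecf cluster held the neutrophil receptors Cxcr2 and Csf3r at 1405.5 and 1401 CPM. With these clusters left unnamed, an alternative chosen after seeing the data, the log2 difference of Hdc from Vehicle to Vehicle-OVA was 0.59 in place of 1.08.

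**Figure D5:**
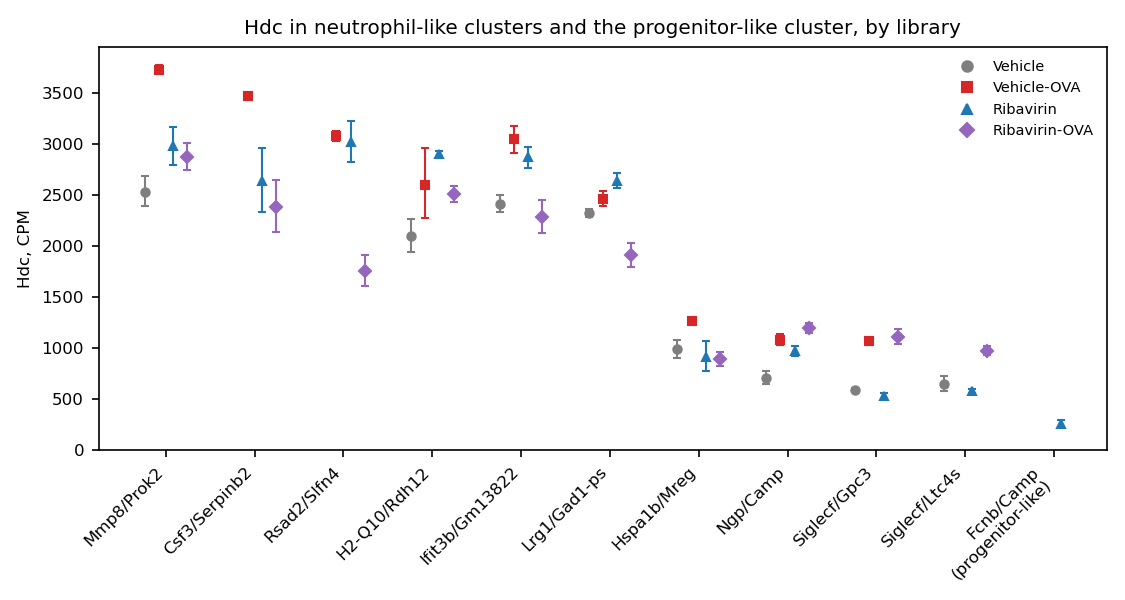
Hdc in CPM in each neutrophil-like cluster and in the progenitor-like cluster, by library, on a linear axis, with exact 95% counting intervals and without libraries that had under 20 cells of a cluster. The Siglecf clusters lie lowest of the neutrophil-like clusters in Vehicle and Ribavirin, the smaller of them overlapping with the Ngp cluster in Vehicle. In Ribavirin-OVA the Hspa1b cluster (889 CPM) overlaps with the smaller Siglecf cluster (975 CPM). The Mmp8 and Csf3 clusters lie highest in Vehicle-OVA, at 3734 and 3470.3 CPM.

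The genes whose levels were most like that of Hdc over classes and libraries were G0s2 (r = 0.904), S100a9 (0.902) and S100a8 (0.895), all abundant in neutrophils. Those most like Fcer1a were Mcpt8 (0.955) and Ms4a2 (0.858), and the one most like Ms4a2 was the mast cell carboxypeptidase Cpa3 (0.898). Each correlation is over 60 points that share 4 libraries, among 14627 genes, and is a description. The classes used had at least 20 cells in each library, so mast cell-like and basophil-like cells were not among them. The values for Fcer1a and Ms4a2 thus come from the few UMIs of these genes in other classes.

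Hrh1 lies on chromosome 6 at 114397936 to 114483296 on the plus strand and encodes the H1 receptor, the target of the common antihistamines. It was scarce, with 74, 37, 69 and 43 UMIs, or 0.48, 0.404, 0.442 and 0.512 CPM over all cells. The folds with OVA were 0.842 (0.552 to 1.27) and 1.16 (0.773 to 1.72), neither beyond counting error. Conventional dendritic cell-like cells held 47.3%, 40.5%, 62.3% and 62.8% of its UMIs, and plasmacytoid dendritic cell-like cells 33.8%, 24.3%, 21.7% and 14%. In conventional dendritic cell-like cells the level was 2.45, 4.15, 3.33 and 6.31 CPM from 35, 15, 43 and 27 UMIs. The fold with OVA was 1.69 under vehicle (0.859 to 3.18) and 1.9 under ribavirin (1.13 to 3.14). The median gene of these cells differed by 0.34 and 0.41 on the log2 scale, and relative to it the log2 difference of Hrh1 was 0.42 and 0.51, the second with an interval that includes 0 (-0.24 to 1.24). In plasmacytoid dendritic cell-like cells it was 3.31, 3.94, 3.03 and 2.46 CPM, with no difference beyond counting error. A UMI was found in 2.26%, 4.21%, 2.87% and 6.64% of conventional dendritic cell-like cells (median 10458 to 13862 UMIs), and in 0.153%, 0.346%, 0.359% and 1.1% after thinning. T cell-like cells held 2 UMIs in 12484 cells. The gene most like Hrh1 was Cd209c (r = 0.885), followed by Clec9a (0.85), both dendritic cell lectins. Mast cell-like and basophil-like cells held 0 UMIs of Hrh1.

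Hrh2 lies on chromosome 13 at 54192129 to 54236180 on the plus strand and encodes the H2 receptor. Over all cells it was at 6.53, 6.58, 5.1 and 4.3 CPM, a fold with OVA of 1.01 (0.909 to 1.12) and 0.843 (0.742 to 0.956). Neutrophil-like cells held 42.2%, 57.5%, 34% and 38% of its UMIs. In them the level was 21.4, 9.86, 12.5 and 15.6 CPM from 425, 346, 271 and 137 UMIs. It was lower in Vehicle-OVA than in Vehicle (0.461-fold, 0.399 to 0.533) and higher in Ribavirin-OVA than in Ribavirin (1.25-fold, 1.01 to 1.54). Relative to the median gene of these cells, the log2 differences were -0.46 and 0.039, the second with an interval that includes 0 (-0.27 to 0.34). Within Vehicle-OVA the level differed between clusters: 43.6 CPM in that led by Lrg1, 28.1 CPM in the larger Siglecf cluster, 9.44 CPM in that led by Mmp8 and 4.47 CPM in that led by Csf3. The Mmp8 and Csf3 clusters were the highest in Hdc in this library. In Hrh2 the Mmp8 cluster was near the level of all neutrophil-like cells there (9.86 CPM). The other clusters are not given here, so no relation between Hrh2 and Hdc is read from these values. An unnamed myeloid cluster led by Ly6i and Cxcl9 held 9.5, 14.8, 13 and 15.9 CPM, and conventional dendritic cell-like cells 6.07 to 12.7 CPM. A UMI was found in 5.31%, 2.8%, 3.78% and 4.79% of neutrophil-like cells, and in 2.14%, 1.04%, 1.22% and 1.79% after thinning. The shares in T cell-like cells were 0.753%, 1.88%, 1.01% and 1.95%, or 0.178%, 0.372%, 0.32% and 0% thinned.

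The wider pathway was read from a list of 44 genes of FcεRI signalling, inhibitory receptors, granule release, IgE binding and histamine handling. The list also held other receptors that use the γ chain, such as Fcgr3 and Clec4e, so its counts are not confined to IgE and histamine. The counts are over all cells, whose makeup differed between libraries. Neutrophil-like cells were 29.3%, 64.5%, 33.3% and 29.5% of them and T cell-like cells 23.2%, 8.1%, 19% and 18.7%. The part of this makeup in the counts was not tested. From Vehicle to Vehicle-OVA, 37 were tested, 8 were at least 2-fold higher (21.6%, against 7.76% of all genes) and 1 lower (2.7%, against 5.56%), and their median log2 difference was 0.34 against 0.01 for all genes. The higher genes included the kinase Syk, the adaptors Lcp2 and Gab2, the inhibitory receptors Cd300lf and Lilrb4a, and Cr2, and the lower one was the adaptor Lat. From Ribavirin to Ribavirin-OVA, 38 were tested, 2 were higher (Slc18a2 and the protease Adam10, which sheds CD23), 5.26% against 5.59% of all genes, and 0 lower against 1.21%, with a median of 0.10 against 0.33. From Vehicle-OVA to Ribavirin-OVA, 0 of 39 were higher, against 9.42% of all genes, and 10 lower (25.6%, against 3.02%), among them Syk, Lcp2 and Cd300lf, with a median of -0.32 against 0.37. From Vehicle to Ribavirin 0 of 38 passed in either direction, against 5.22% of all genes higher and 0.0691% lower. Of the 37 genes tested in both OVA pairs, 0 passed 2-fold in 1 direction in both with 1 CPM added, and 1 did, Slc18a2, with 0.1 CPM added, an alternative chosen after seeing the data.

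Slc18a2, which loads histamine into granules, was at 1.64, 3.73, 1.36 and 6.28 CPM over all cells, a fold with OVA of 2.28 (1.93 to 2.69) and 4.63 (3.94 to 5.45). In mast cell-like cells it held 924, 721, 206 and 877 CPM, and in basophil-like cells 81.6, 1068, 315 and 502 CPM. Basophil-like cells of Vehicle held only 12262 UMIs of all genes and mast cell-like cells of Ribavirin 19431, so the lowest values rest on very few UMIs. Hnmt, which breaks histamine down, was at 3.43, 4.59, 3.66 and 3.48 CPM, and 52.5% of its UMIs lay in neutrophil-like cells. Hrh4, the histamine receptor of leukocytes, had 4 to 7 UMIs in a library, too few to compare. Lgals3, a lectin that binds IgE, was abundant at 399.7, 542, 407 and 403 CPM, a fold with OVA of 1.36 and 0.991.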

How the data were processed

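Nasal mucosa was digested and CD45+ cells were enriched, with magnetic beads per the labels and by flow sorting per the series text. The authors made 10x libraries with the Chromium Single Cell 3′ chemistry and deposited 1 matrix per library of whole-number UMI counts per gene and called cell, not normalized. The submitters' processing notes name Cell Ranger 5.0.0 and the build mm10, and the annotation is not given in the sources used here.

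From the deposited counts, cells with at least 200 genes and 500 UMIs and under 10% mitochondrial UMIs were kept. Doublets were marked by simulated doublets (expected rate 0.4% per 1000 barcodes) and removed. The libraries were clustered together without the 7 genes (scanpy 1.11.5, leidenalg 0.10.2, 2000 variable genes, 30 principal components, 15 neighbours, resolution 1). A cluster took the class with the best marker score among classes with at least 3 detected markers, a condition added after the clusters were seen. Cells of the mast cell and basophil cluster were divided by at least 3 UMIs of at least 2 markers. Levels are CPM of summed UMIs, and intervals are exact Poisson, Clopper-Pearson or conditional binomial at 95% (scipy 1.17.1). Fold counts used log2(CPM + 1) and genes with at least 50 UMIs. No other columns were left unmapped (0). The 7 genes and the gene lists were chosen with earlier results of these data known. Besides the 7 genes, the text names Slc18a2, Hnmt, Hrh4 and Lgals3 by rule, pathway genes past 2-fold in 1 direction in both OVA pairs (0 genes), and up to 3 genes most like each member. The other pathway genes, the markers and the genes that lead clusters were named after their values were seen. Functions were tested on simulated counts. Alternatives changed the filters, doublet removal, resolution, thinning, class rule and scaling. Gene positions are from GENCODE M21 and promoters from RefSeq.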

Additional observations from a re-analysis of the deposited data

Results flagged for a closer look

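In 11 cases a gene was higher with OVA under vehicle and lower under ribavirin, or the reverse, with both counting intervals clear of 1. Classes with under 20 cells in a library were not looked at, apart from mast cell-like and basophil-like cells. With 1 library in each group the difference between the pairs was not tested. Over all cells, the fold of Hdc with OVA was 6.02 in the vehicle pair and 0.647 in the ribavirin pair, and within neutrophil-like cells it was 2.11 and 0.815. Hrh2 in neutrophil-like cells went the other way, at 0.461 and 1.25, and relative to the median gene of these cells the log2 differences were -0.46 and 0.039.

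The remaining cases are Hdc in classes where its level was far below that of neutrophil-like cells. The folds under vehicle and ribavirin were 5.64 and 0.107 in macrophage-like cells. Conventional dendritic cell-like cells had 5.37 and 0.238. T cell-like cells had 7.35 and 0.661, and NK-like cells had 4.79 and 0.462. In B cell-like cells they were 3.27 and 0.11, in plasma cell-like cells 10.8 and 0.663, and in epithelial-like cells 2.3 and 0.822. The cluster led by Ccl24 and Arg1 had 1.79 and 0.334. Neutrophil-like cells were 64.5% of the Vehicle-OVA library against 29.3% to 33.3% of the others, and the part of their free RNA or of doublets in these low levels was not tested.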

How the results depend on the processing

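No paired analysis was possible because each group had 1 library. Of 732 recomputed values, 524 moved by less than counting error and 200 by more: 101 away from 0, 87 toward 0 and 12 to the other sign from a value that was itself within counting error of 0. The other 8 reversed a difference beyond counting error. Values are given in the order Vehicle, Vehicle-OVA, Ribavirin, Ribavirin-OVA where they belong to libraries, and ratios are on the log2 scale.

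The share of Hdc UMIs in neutrophil-like cells moved to 88.9%, 93.6% and 89.7% in the first 3 libraries with a mitochondrial limit of 20%. It was 89.5%, 93.5%, 87.3% and 85.4% with at least 1000 UMIs and 500 genes, and 80.1%, 91.7%, 84.8% and 84.2% with doublets kept. With the members in the clustering it was 89.1%, 90.6% and 83.4% in Vehicle, Vehicle-OVA and Ribavirin-OVA. With classes from marker UMIs of single cells it was 90.8%, 94%, 92% and 87%, and with the clusters of few detected markers left unnamed 67%, 70.8%, 80.3% and 63.2%. Without thinning, the share of neutrophil-like cells with a UMI of Hdc was 73.8%, 83%, 86.4% and 78.2%.

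Hdc in neutrophil-like cells from Vehicle to Vehicle-OVA was 1.05 (limit of 20%), 1.18 (members in clustering), 0.80 (mean of single cells), 1.74 (relative to the median gene) and 0.59 (clusters unnamed). From Ribavirin to Ribavirin-OVA it was -0.25, -0.33, -0.58 and -0.41 under the last 4 of these. With at least 1000 UMIs and 500 genes no mast cell and basophil cluster was found, so that the marker rule took cells of every cluster (254 mast cell-like and 97 basophil-like). The ratio of neutrophil-like to mast cell-like cells was then 3.86 in Vehicle-OVA and 4.85 in Ribavirin-OVA, and that to basophil-like cells -1.28, 0.56 and a reversed 0.35 in Vehicle-OVA, Ribavirin and Ribavirin-OVA. The same rule on the main cells, added after seeing the data, gave 3.85 and 4.84, then 1.08 (Vehicle), -1.29, 0.56 and a reversed 0.35. In Ribavirin the reported value is -0.098, so that 0.56 has the other sign. Both reversed Hdc in basophil-like cells (-0.082) and Fcer1a in mast cell-like cells (-1.77) from Ribavirin to Ribavirin-OVA, so the values of these 2 classes depend on where their borders are set. The depth filter reversed Hdc in monocyte-like cells (0.39) and the mean of single cells reversed Hrh2 over all cells (0.041), both from Ribavirin to Ribavirin-OVA. The causes were not tested.

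The ratio to basophil-like cells was -1.40 in Vehicle-OVA with members in clustering and -1.68 with the mean of single cells. It was -0.60 (Ribavirin) and -1.62 (Ribavirin-OVA) with single-cell classes, and -1.26, 0.32 and -0.91 in the last 3 libraries with clusters unnamed. The ratio to mast cell-like cells was 1.24 in Vehicle-OVA with the mean of single cells, and in Ribavirin-OVA 0.28 with single-cell classes and 1.46 with clusters unnamed. With 0.1 CPM added, 4 of the 7 genes passed 2-fold between the OVA libraries in place of 2. The mast cell-like and basophil-like classes hold 4 to 27 cells in a library, and that number and the single library per group limit what these values can show.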
